A study of Rattus norvegicus with 8 samples.

Results

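Growth factors and growth factor receptors that are studied in liver regeneration were followed through the rat liver samples of the series, namely Hgf, Met, Egfr, Erbb3, Tgfa, Areg, Hbegf, Egf, Tgfb1 and Fgfr4. The genes were chosen by symbol, and each was read by the probe set with that single symbol. All 10 were measured, among 14511 genes in all, and each had 1 such probe set. RNA came from the liver of female Wistar rats, an outbred laboratory strain, and was hybridised to Affymetrix Rat Gene ST 1.0 arrays, which read a transcript with many probes along its length. One group was the remnant liver 8 h after partial hepatectomy (PH), in which 2/3 of the liver mass was removed. The other groups were livers of rats aged 2, 4 and 12 weeks, and each of the 4 groups had 2 arrays. How old the operated rats were is not stated in the labels, and sham surgery was not analysed here, so age and surgery cannot be told apart in comparisons with the operated liver. The titles name biological replicates and the design text duplicates, so a p-value reflects the scatter of 2 arrays a group, which may be technical.

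Hepatocyte growth factor, encoded by Hgf, is made in liver mainly by non-parenchymal cells such as stellate cells and acts on hepatocytes through its receptor Met. The epidermal growth factor receptor Egfr is bound by Egf, Tgfa, Areg and Hbegf, and it can pair with Erbb3, a neuregulin receptor with an impaired kinase. These routes favour hepatocyte division after loss of liver mass. Tgfb1 is the best known inhibitor of hepatocyte division, and Fgfr4 is the hepatocyte receptor through which FGF signals restrain bile acid synthesis.

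Hgf and Egf were the 2 genes of the 10 whose group means spanned at least 1 log2 unit (1.30 and 1.17). Their promoters are shown because the results turn on these 2 genes. The sequences are the RefSeq windows of build GRCr8 that reach from 250 bases before to 50 bases after the annotated start, both on the minus strand, Hgf at chr4:19700418-19700717 and Egf at chr2:220976248-220976547. Capitals mark the CCAAT motif, read here on the opposite strand.
Hgf: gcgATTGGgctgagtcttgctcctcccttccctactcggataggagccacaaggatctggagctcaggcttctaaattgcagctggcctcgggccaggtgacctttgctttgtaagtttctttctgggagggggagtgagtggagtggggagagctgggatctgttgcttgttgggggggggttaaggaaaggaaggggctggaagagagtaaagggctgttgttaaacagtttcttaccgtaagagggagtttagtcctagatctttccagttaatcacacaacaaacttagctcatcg
Egf: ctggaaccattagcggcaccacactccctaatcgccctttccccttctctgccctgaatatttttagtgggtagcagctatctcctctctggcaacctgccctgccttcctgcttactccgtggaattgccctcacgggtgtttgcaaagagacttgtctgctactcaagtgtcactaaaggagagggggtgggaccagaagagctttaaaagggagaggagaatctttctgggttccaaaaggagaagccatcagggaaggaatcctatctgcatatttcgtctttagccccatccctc
Of 6 motifs searched on both strands, the Hgf window held CCAAT, which 37.7% of 27457 promoters of this length hold, and the Egf window held none. The other motifs were TATAAA (14.3% of promoters), GGGCGG (34.9%), TGACGTCA (1.9%), TGANTCA (7.3%) and TTCNNNGAA (8.7%), none of which contains another. Windows were given for 9 of the 10 genes. Among them Areg held TATAAA and TGACGTCA together with GGGCGG, while Egfr, Tgfa and Fgfr4 held GGGCGG and Hbegf held CCAAT. These matches describe letters only.

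Levels below are the deposited log2 values made by robust multi-array averaging (RMA), so a difference of 1 is a factor of 2. The 2 arrays of the 12-week group stood further apart than those of the other groups, with a mean gap per gene of 0.52 against 0.31 in the PH group, 0.32 for the 2-week livers and 0.34 for the 4-week livers. Over all genes each 12-week array correlated better with the same-numbered PH array (0.969 and 0.976) than with the other 12-week array (0.952). The split between the 12-week arrays touches each comparison with that group below. Through the spread that the groups share in the model it also enters the other tests. The other 6 arrays correlated best within their group. As a gauge of background, 1105 olfactory receptor genes had a median level of 4.69 and 4.21 on the PH arrays, 4.07 to 4.12 on the 4 arrays of 2 and 4 weeks, and 4.82 and 3.96 on the 12-week arrays. The 6 hepatocyte markers, Alb, Ttr and Hnf4a among them, had summed levels (log2) between 16.01 and 16.26 on the 8 arrays. Such a sum is led by the highest genes. Taken alone, Hnf4a ran from 10.47 to 11.82 and Apoa1 from 12.64 to 13.86.

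**Figure D1:**
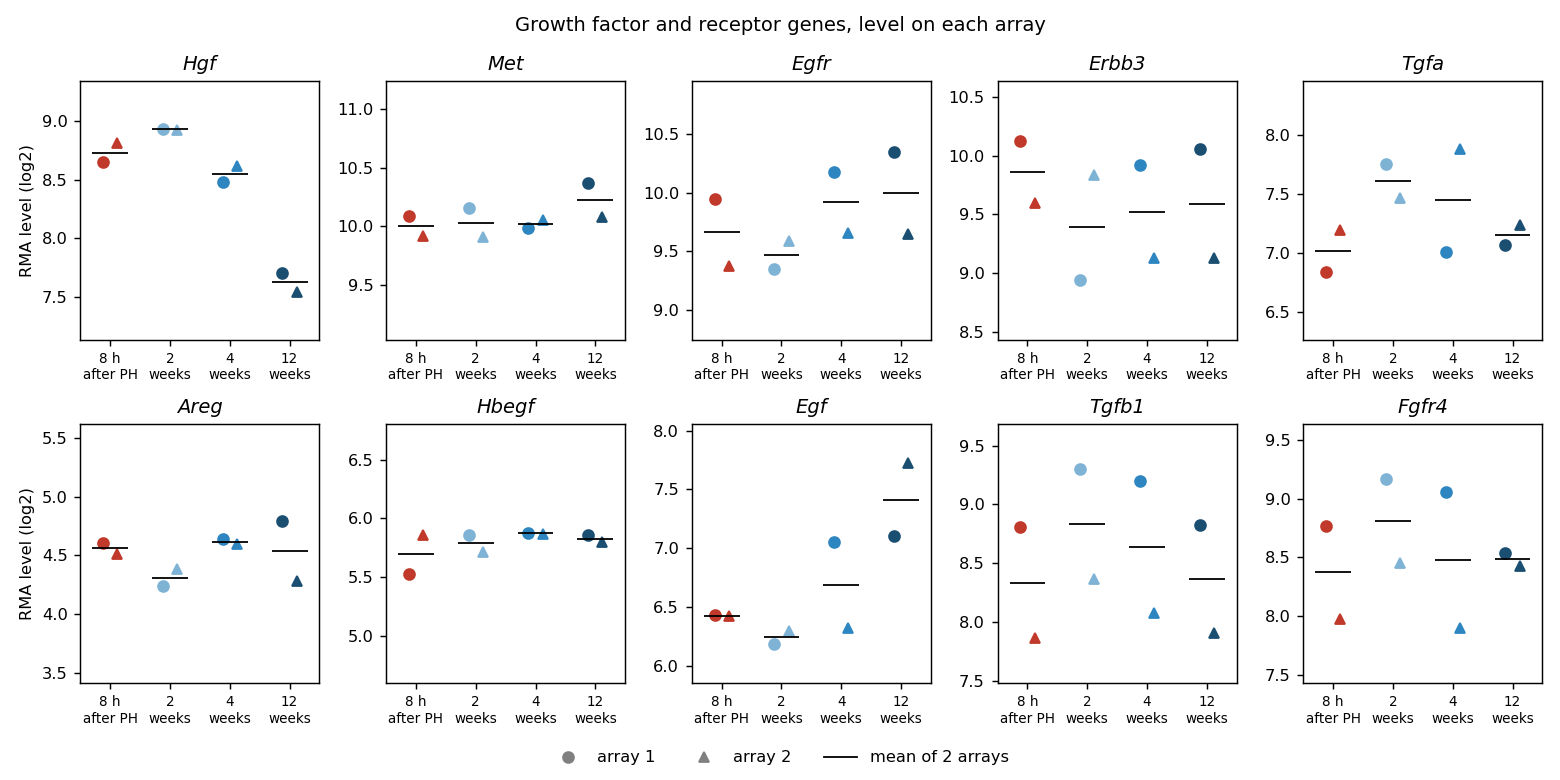
RMA level (log2) of the 10 genes on each of the 8 arrays, with the 4 groups on the horizontal axis, circles for array 1, triangles for array 2 and a line at the mean. Every panel spans the same log2 range. Hgf lies lowest on both 12-week arrays (7.70 and 7.55), Egf highest there (7.10 and 7.72), and Tgfb1 is higher on array 1 than on array 2 in each group.

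Hgf was high in the operated liver and in the young livers, and low in the adult liver. It read 8.65 and 8.81 on the PH arrays, 8.93 and 8.92 at 2 weeks, 8.48 and 8.62 at 4 weeks, and 7.70 and 7.55 at 12 weeks. Both 12-week arrays lay below the other 6, and the PH arrays lay between those of 2 and 4 weeks. By mean the order was 2 weeks (8.93 ± 0.01), PH (8.73 ± 0.11), 4 weeks (8.55 ± 0.10) and 12 weeks (7.63 ± 0.11, SD, n = 2 each). No difference among the first 3 in that order passed the test. PH minus 2 weeks was -0.20 (95% interval -0.67 to 0.28, limma adjusted p = 0.8433), PH minus 4 weeks was 0.18 (-0.29 to 0.66, adjusted p = 0.8764), and 4 minus 2 weeks was -0.38 (-0.86 to 0.10, adjusted p = 0.8048).

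Hgf fell at 12 weeks relative to 2 weeks. The 12-week mean was 0.406 times the 2-week mean, a log2 difference of -1.30 ± 0.21 (SE; limma adjusted p = 0.0181 over 14511 genes). This was the 1 call among the 10 genes in that comparison, where 2.23% of all genes were called and 1.29% were called lower. The call was lost without the first 2-week array (adjusted p = 0.1193, difference -1.30), without the second (0.0818, -1.31) and when the 4 arrays were fitted alone (0.1093), while the difference stayed between -1.38 and -1.22 in the 16 alternatives. Against 4 weeks the 12-week mean differed by -0.92 ± 0.21 (adjusted p = 0.375), which did not pass.

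After PH Hgf stood at 2.15 times the 12-week level, with 8.73 ± 0.11 after PH against 7.63 ± 0.11 at 12 weeks (SD, n = 2 each). The log2 difference of 1.11 ± 0.21 (SE) had a 95% interval from 0.63 to 1.58 and an adjusted p of 0.1826, short of the threshold. Leaving out any 1 array kept the difference between 1.03 and 1.18, and the adjusted p lay between 0.1013 and 0.9684 over the 16 alternatives. In limma 0 of the 10 genes passed in this comparison, where 0.0345% of all genes were called. At an unadjusted p under 0.05 there were 2, Hgf and Egf, against 6.01% of all genes. The arrays of the 2 groups did not overlap for these 2 genes either, and 29.0% of all genes separated the arrays in that way.

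Stellate cells and fibroblasts, which make Hgf, were followed by 11 markers, all measured. For 12 minus 2 weeks 0 of 11 were higher, the median difference was -1.46, and 2 of them fell by limma. Over all genes 51.6% were higher there and 1.29% were called lower. For 12 minus 4 weeks 0 of 11 were higher and the median was -1.22, and 0 passed by limma while 7 had an unadjusted p under 0.05. Of all genes 49.9% were higher there, and 4.47% had an unadjusted p under 0.05. For PH minus 2 weeks 0 of 11 were higher, the median was -1.13 and 1 fell. Of all genes 53.1% were higher there, and 2.16% were called in either direction. For PH minus 4 weeks 0 of 11 were higher, with a median of -0.77. There 0 passed by limma and 6 had an unadjusted p under 0.05, beside 10.2% of all genes. Between PH and 12 weeks 6 of 11 were higher and the median difference was 0.00, with 0 passing and 0 at an unadjusted p under 0.05. In that comparison 50.3% of all genes were higher. Summed over the 11 markers, the level (log2) was 11.66 and 11.65 on the PH arrays, 12.86 and 12.60 at 2 weeks, 13.35 and 12.10 at 4 weeks and 11.64 and 11.43 at 12 weeks. The first 4-week array was the highest. The PH arrays were near the 12-week arrays for these markers and near the young livers for Hgf. By the marker median the second 4-week array (8.33) also lay near the PH arrays, while the first read 9.36. The lowest single reading among the markers was 3.69, for Lum. Fewer cells of a type and less RNA per cell cannot be told apart in whole liver. The part of these markers in the differences of Hgf was not tested. Other cell types moved too. For 12 minus 2 weeks 0 of 6 erythroid markers were higher, with a median of -2.08, and 3 fell, beside 1.29% of all genes. For the same ages 0 of 8 neutrophil markers were higher (median -1.63, 0 passed by limma, 7 at an unadjusted p under 0.05) and 7 of 7 lymphocyte markers were higher (median 0.75, 0 passed, 4 at an unadjusted p under 0.05). Of all genes 11.1% had an unadjusted p under 0.05 between these ages. Macrophage, endothelial, hepatocyte and cholangiocyte markers had medians of -0.07, -0.35, -0.03 and -0.03. For PH minus 12 weeks 0 of 7 lymphocyte markers were higher (median -0.63, 0 passed by limma, 2 at an unadjusted p under 0.05, beside 6.01% of all genes). The medians there were -0.25 for erythroid, 0.07 for neutrophil, 0.14 for macrophage, -0.03 for endothelial, -0.07 for hepatocyte and 0.09 for cholangiocyte markers. The part of these cells in the differences of Hgf was not tested either.

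**Figure D2:**
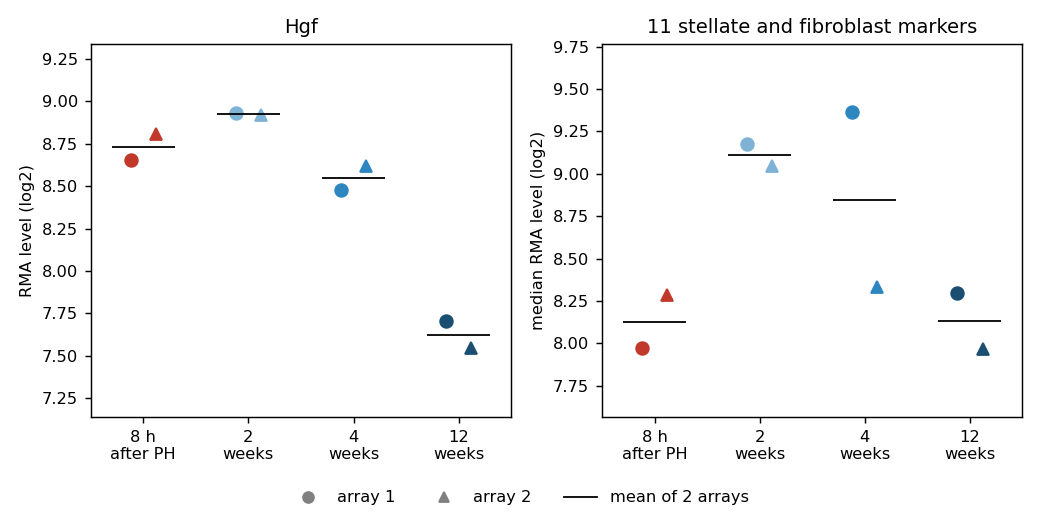
RMA level (log2) of Hgf on the left and the median level (log2) of 11 stellate and fibroblast markers on the right, for both arrays of the 4 groups, with circles for array 1, triangles for array 2 and lines for means. The PH arrays are near the young livers for Hgf (8.65 and 8.81) and near the 12-week arrays for the markers (7.97 and 8.28 after PH against 8.30 and 7.97 at 12 weeks). For the markers the second 4-week array (8.33) is near the PH arrays too, and the first is at 9.36.

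Met, the receptor for Hgf, showed no difference that passed. It read 10.09 and 9.92 after PH, 10.16 and 9.91 at 2 weeks, 9.99 and 10.06 at 4 weeks, and 10.37 and 10.08 at 12 weeks. Its 4 group means lay within 0.22 of each other, and the arrays of 12 weeks overlapped with those of 2 weeks. PH minus 12 weeks was -0.22 (95% interval -0.73 to 0.29, limma adjusted p = 1), and 12 minus 2 weeks was 0.19 (-0.32 to 0.71, adjusted p = 0.8448).

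Egf, the founding ligand of the family, read highest at 12 weeks, where Hgf read lowest. It read 6.43 and 6.42 after PH, 6.19 and 6.29 at 2 weeks, 7.05 and 6.32 at 4 weeks, and 7.10 and 7.72 at 12 weeks. Both 12-week arrays lay above the other 6, the first of them narrowly above the first 4-week array. The 12-week mean was 2.25 times the 2-week mean, a difference of 1.17 ± 0.31 (SE; limma adjusted p = 0.1284) that did not pass. It became 1.48 once the first 12-week array was removed and 0.86 once the second was. After PH the mean was 6.42 ± 0.01 against 7.41 ± 0.44 at 12 weeks (SD, n = 2 each), a difference of -0.99 ± 0.31 (adjusted p = 0.5499) that did not pass. Removing the first 12-week array gave -1.30, and removing the second gave -0.68.

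The inducible Egfr ligands showed no difference that passed. Tgfa read 6.84 and 7.20 after PH, 7.76 and 7.47 at 2 weeks, 7.01 and 7.89 at 4 weeks and 7.07 and 7.24 at 12 weeks. The 2-week arrays were both above the PH and 12-week arrays, and the 4-week arrays lay far apart. PH minus 2 weeks was -0.59 (95% interval -1.32 to 0.13, limma adjusted p = 0.5635) and PH minus 12 weeks -0.14 (-0.86 to 0.59, adjusted p = 1). Areg, amphiregulin, read 4.61 and 4.51 after PH, 4.24 and 4.39 at 2 weeks, 4.64 and 4.60 at 4 weeks and 4.80 and 4.28 at 12 weeks. These values lie in the range of the olfactory receptor medians, and the 12-week arrays are split in the same direction in both. Whether Areg was above background cannot be told from the deposited values, and PH minus 12 weeks was 0.02 (-0.53 to 0.57). Hbegf, the heparin-binding ligand, ran from 5.53 to 5.87 over the 8 arrays. Its lowest reading was the first PH array, and PH minus 12 weeks was -0.13 (-0.63 to 0.36, adjusted p = 1).

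The receptors Egfr and Erbb3 showed no difference that passed, with arrays of a group up to 0.93 apart. Egfr read 9.95 and 9.38 after PH, 9.35 and 9.59 at 2 weeks, 10.18 and 9.66 at 4 weeks, and 10.35 and 9.65 at 12 weeks. Its mean was highest at 12 weeks and lowest at 2 weeks, a difference of 0.52 (95% interval -0.23 to 1.28, limma adjusted p = 0.6676). The arrays of the 2 ages separated narrowly (9.59 against 9.65), and 34.4% of all genes separated them. PH minus 12 weeks was -0.33 (-1.09 to 0.42, adjusted p = 1), with overlapping arrays. Erbb3 read 10.13 and 9.60 after PH, 8.94 and 9.83 at 2 weeks, 9.92 and 9.13 at 4 weeks and 10.05 and 9.13 at 12 weeks. Its arrays overlapped in each of the 6 comparisons, and PH minus 12 weeks was 0.27 (-0.74 to 1.28, adjusted p = 1).

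**Figure D3:**
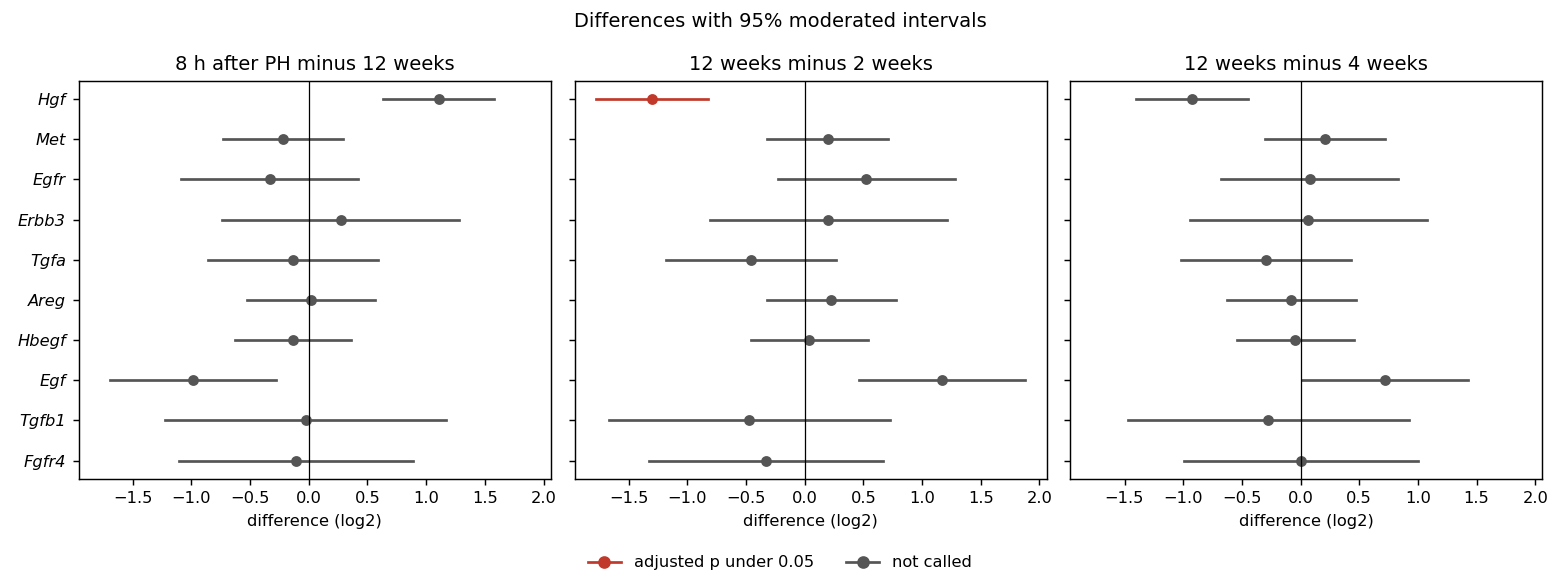
Differences in level (log2) of the 10 genes for PH minus 12 weeks, 12 minus 2 weeks and 12 minus 4 weeks, with points for the difference and bars for the 95% moderated interval. Hgf at 12 minus 2 weeks (-1.30) is the single call, drawn in red, and the intervals of Tgfb1 are the widest (from -1.22 to 1.17 after PH).

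Tgfb1 and Fgfr4 were higher on the first array than on the second in each group. Tgfb1 read 8.81 and 7.86 after PH, 9.30 and 8.37 at 2 weeks, 9.20 and 8.08 at 4 weeks, and 8.82 and 7.90 at 12 weeks. The first array of Tgfb1 was higher by 0.94 in the PH group, 0.93 in the 2-week group, 1.12 in the 4-week group and 0.92 in the 12-week group, while its group means spanned 0.50. A gap of at least 0.9 with the same sign in all 4 groups was found for 32 of 14511 genes (0.221%), and Tgfb1 was the 1 among the 10. The cutoff of 0.9 lies just under the smallest gap of Tgfb1 (0.92), so its passing is no test of how rare such a gap is. Among the first arrays and again among the second, the order was 2 weeks, 4 weeks, 12 weeks, PH. In the test Tgfb1 differed by -0.03 for PH minus 12 weeks (95% interval -1.22 to 1.17, limma adjusted p = 1) and by -0.47 for 12 minus 2 weeks (-1.67 to 0.72, adjusted p = 0.8369), so these intervals hold changes of more than 1 log2 unit in one or both directions.

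Fgfr4 read 8.77 and 7.98 after PH, 9.17 and 8.45 at 2 weeks, 9.05 and 7.90 at 4 weeks and 8.54 and 8.43 at 12 weeks. The first array was again above the second in all 4 groups, as for 12.9% of all genes, but by 0.11 at 12 weeks and by 0.72 to 1.16 elsewhere. PH minus 12 weeks was -0.11 (95% interval -1.11 to 0.89, limma adjusted p = 1). The labels name no batch for these numbers, and the cause of the gap was not tested.

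**Figure D4:**
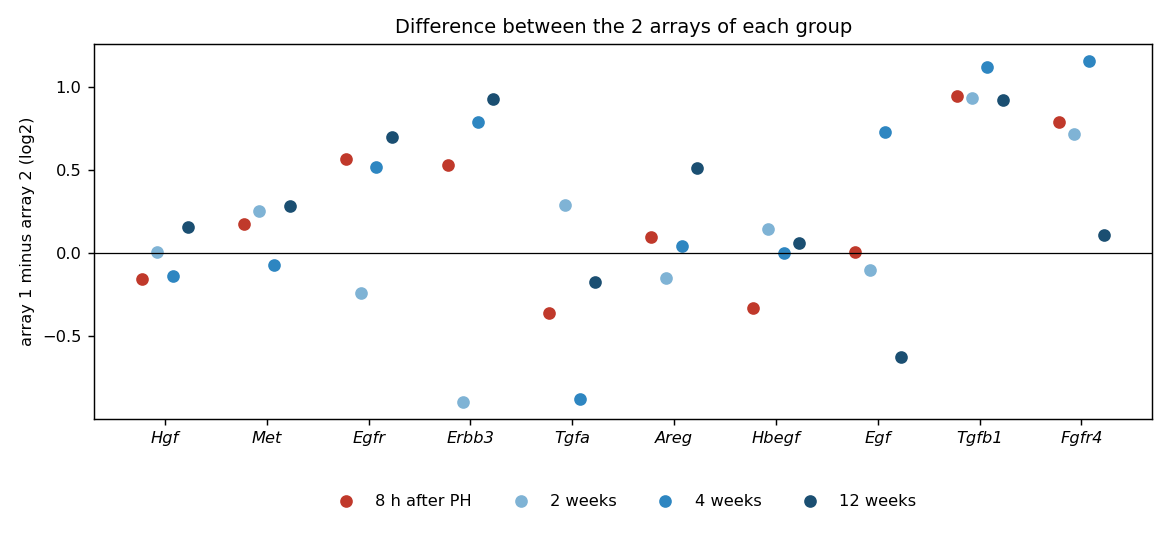
Level on array 1 minus level on array 2 (log2) for the 10 genes, with a point for each of the 4 groups. The 4 points of Tgfb1 lie between 0.92 and 1.12 and those of Fgfr4 above 0, while those of Hgf stay within 0.16 of 0.

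Outside 12 minus 2 weeks, where Hgf passed, none of the 10 genes passed by limma in any comparison. For PH minus 2 weeks 0 passed, against 2.16% of all genes, and 0 had an unadjusted p under 0.05, against 11.6%. The arrays did not overlap for Areg and Egf, which read higher after PH, and for Hgf and Tgfa, which read lower, while 46.8% of all genes separated so. For PH minus 4 weeks 0 passed (0.31% of all genes) and 0 had an unadjusted p under 0.05 (10.2%), and the arrays separated for Hgf, higher, and Hbegf, lower (44.1%). For 12 minus 4 weeks 0 passed (0.11%) and 2, Hgf and Egf, had an unadjusted p under 0.05 (4.47%). There the arrays separated for Met and Egf, higher, and Hgf and Hbegf, lower (25.1%). For 4 minus 2 weeks 0 passed (0.455%) and 0 had an unadjusted p under 0.05 (7.24%), and the arrays separated for Egfr, Areg, Hbegf and Egf, higher, and Hgf, lower (40.2%). For 12 minus 2 weeks 2, Hgf and Egf, had an unadjusted p under 0.05 (11.1%), and the arrays separated for Egfr and Egf, higher, and Hgf and Tgfa, lower (34.4%). The comparisons share arrays and are not independent of each other. Over the 10 genes the median difference was -0.12 for PH minus 12 weeks and 0.12 for 12 minus 2 weeks, beside 0.00 and 0.01 over all genes.

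Further genes of these pathways were taken from 5 lists with 84 of 94 entries measured. After PH 0 of the 84 passed against 12 weeks by limma, and 6 had an unadjusted p under 0.05, beside 6.01% of all genes. Mst1, the ligand of the Met-related receptor Mst1r, had the largest difference of the HGF list at -1.72 ± 0.68 (SE; adjusted p = 0.7592), with 7.54 and 7.83 after PH against 8.14 and 10.67 at 12 weeks. It was -2.99 without the first 12-week array, which passed (adjusted p = 0.0499), and -0.46 without the second. Inhbe, an inhibin subunit of the TGF-beta family, differed by 1.35 ± 0.69 (adjusted p = 0.9267), which became 0.06 when the first 12-week array was removed and 2.64 when the second was. Fgf1, a ligand of all FGF receptors, differed by -1.25 ± 0.51 (adjusted p = 0.774), which became -1.91 with the first 12-week array removed and -0.59 with the second removed. Grb7, an adaptor of Erbb receptors, differed by -0.49 ± 0.59 (adjusted p = 1), which became -0.05 and -0.92 with the first or second 12-week array removed, and -0.87 and -0.10 with the first or second PH array removed. Junb, an early transcription factor downstream of these receptors, differed by 1.91 ± 0.24 (adjusted p = 0.0536). Junb passed by limma in only 2 of 16 alternatives. These were the array number as a replicate block (adjusted p = 0.0202) and centring on the 75th percentile (0.047). With an array left out its difference lay between 1.87 and 1.95.

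Between 12 and 2 weeks 0 of the 84 genes rose and 4 fell, where 2.23% of all genes were called and 1.29% were called lower. Tgfbr3, betaglycan, a co-receptor that presents TGF-beta, fell to 7.51 and 7.48 at 12 weeks, against 8.83 and 8.55 at 2 weeks, a difference of -1.20 ± 0.21 (SE; limma adjusted p = 0.0271). Gpc3, glypican-3, a surface proteoglycan of fetal liver, fell to 5.64 and 5.83 at 12 weeks, against 7.58 and 7.23 at 2 weeks, a difference of -1.67 ± 0.24 (adjusted p = 0.0115). The others were Ccnd1, the G1 cyclin (-2.19 ± 0.28, adjusted p = 0.0075), and Egr1, an early ERK target (-1.56 ± 0.27, adjusted p = 0.0234). Without the first 2-week array each of the 4 lost its call, with adjusted p values of 0.1964 for Tgfbr3, 0.1001 for Gpc3, 0.0638 for Ccnd1 and 0.1013 for Egr1. Tgfbr3 lost it without any 1 of the 8 arrays (difference -1.34 to -1.06). Egr1 lost it also without either PH array (0.0507), the second 2-week array (0.125) or the second 12-week array (0.0619). With the 2 groups fitted alone, Tgfbr3, Gpc3 and Egr1 lost their calls as well (limma adjusted p 0.1476, 0.0651 and 0.0792). In the TGF-beta list 3 of 22 genes were higher at 12 weeks and the median difference was -0.41. Mst1 differed by -1.20 ± 0.68 (adjusted p = 0.6213), by 0.06 without the first 12-week array and by -2.47 without the second, which passed (0.0182), and Nrg1 by 1.01 ± 0.21 (adjusted p = 0.057).

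Set against 2 weeks, the operated liver had 2 of the 84 genes higher and 3 lower by limma (2.16% of all genes called). Nrg1, a neuregulin that binds Erbb3, rose to 6.97 and 6.69 after PH, against 5.38 and 5.32 at 2 weeks, by 1.48 ± 0.21 (SE; adjusted p = 0.0123). It read 5.89 and 5.71 at 4 weeks and 6.38 and 6.34 at 12 weeks, and the PH arrays were the highest of the 8. Its call was lost without either PH array (adjusted p 0.1438 and 0.0706) or either 2-week array (0.0909 and 0.0648). Gpc3 fell by 1.70 ± 0.24 (adjusted p = 0.0107), a call lost without either PH array (0.1165 and 0.081) or the first 2-week array (0.0998). Ccnd1 (-2.27 ± 0.28, adjusted p = 0.0071, lost without the first PH or first 2-week array at 0.0709 and 0.0607) and Egr1 (-1.36 ± 0.27, adjusted p = 0.0421) were lower and Junb was higher (1.28 ± 0.24, adjusted p = 0.0374). Egr1 and Junb both lost their calls without any 1 of the 2-week, 4-week or PH arrays. Their differences with an array left out ran from -1.50 to -1.22 and from 1.02 to 1.54. Both also lost them with median centring (limma adjusted p 0.0559 and 0.052) and with all probe sets (0.0842 and 0.0742). The changed variance prior did the same (0.0553 and 0.0514). Centring on the 75th percentile cost Egr1 its call (0.0569), and fitting the 2 groups alone cost Junb its call (0.0551). Mst1 differed by -2.93 ± 0.68 (limma adjusted p = 0.0835) and passed in 5 of 16 alternatives. With an array left out its difference lay between -3.07 and -2.78. Largest in the TGF-beta list was Fst, the activin antagonist follistatin (-1.51 ± 0.37, adjusted p = 0.1061). It was -0.87 without the first 2-week array and -2.14 without the second, which passed (0.0169).

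Of the other comparisons, PH minus 4 weeks gave 1 call among the 84 genes, Egr1 (-2.05 ± 0.27, SE; limma adjusted p = 0.0279), lost without any 1 of the 2-week, 4-week or PH arrays at adjusted p values from 0.0534 to 0.2497. With all probe sets the Egr1 call was lost too (limma adjusted p = 0.0668). Of all genes 0.31% were called in this comparison. Largest in their lists without passing were Mst1 (-2.30 ± 0.68), Inhbe (2.30 ± 0.69), Fgf1 (-1.66 ± 0.51) and Nrg1 (1.03 ± 0.21). Mst1 and Inhbe each passed in 3 of 16 alternatives, some of which left out a 12-week array, a group outside this comparison. Between 12 and 4 weeks Egr1 was again the 1 call (-2.25 ± 0.27, adjusted p = 0.0258), lost without any 1 of the 8 arrays at 0.0535 to 0.1583. Median centring (limma adjusted p = 0.051), all probe sets (0.0647) and the 2 groups alone (0.1721) lost the Egr1 call as well. Of all genes 0.11% were called between these ages. Plau, the urokinase that can activate Hgf, differed by -0.75 ± 0.32 (adjusted p = 0.9994, and -0.41 or -1.10 with the first or second 4-week array removed) and Nrg1 by 0.56 ± 0.21. Inhbe (0.95 ± 0.69) and Fgfr2 (0.53 ± 0.46) turned when an array was left out and ranged from -0.34 to 2.24 and from -0.07 to 1.14. Between 4 and 2 weeks 0 of 84 passed and 14 had an unadjusted p under 0.05, beside 7.24% of all genes. Largest there were Ccnd1 (-1.73 ± 0.28, adjusted p = 0.0514), Gpc3 (-1.42 ± 0.24, adjusted p = 0.0563), Inhbe (-1.66 ± 0.69), Mst1 (-0.62 ± 0.68) and Errfi1, a feedback inhibitor of Egfr (0.61 ± 0.21). By limma Ccnd1 passed in 7 of 16 alternatives, Gpc3 in 4 of 15 and Inhbe in 2 of 16. Some of these left out a 12-week array, which enters this comparison only through the spread that the groups share in the model. Mst1 became -0.99 or -0.26 with the first or second 4-week array removed.

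Genes with the profile most like Hgf were sought by the root mean square difference over the 8 arrays, after centring each gene on its own mean. Nearest among 14511 genes were Ptma (0.22 log2 units), Mt1 (0.24) and Rcn1 (0.24). Ptma averaged 10.66 in operated livers and 10.93, 10.65 and 9.88 in livers of 2, 4 and 12 weeks. For Egf the nearest were Pgpep1 (0.11), Chrne (0.18) and Abca8a (0.18). Pgpep1 averaged 8.95 in operated livers and 8.96, 9.24 and 9.99 in livers of 2, 4 and 12 weeks, and shared with Egf a first 4-week array above the second (9.64 and 8.85). This is a description of 8 arrays in 4 groups, with no test.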

How the data were processed

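RNA of 8 rat liver samples was measured on 1 array each, with 2 arrays in each of 4 groups. Per the submitters' processing notes, the deposited log2 values were made by RMA in Affymetrix Expression Console, whose version is not given. RMA corrects background, brings the arrays towards 1 distribution and summarises probes, which removes much of a global shift between arrays. Medians of the deposited probe sets still ran from 5.98 to 6.17 over the arrays, and 75th percentiles from 7.63 to 7.85. The table holds 29214 probe sets, of which 15316 had a single gene symbol in the platform annotation and 317 several, and 13581 were unnamed. Of the single ones 15279 matched RefSeq by gene ID. For 528 genes with several probe sets the one with the highest mean was used, which left 14511 genes. The files give no detection calls or read depth, so the number of arrays limits precision.

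One model of the 4 groups was fitted with limma 3.58.1 (lmFit, eBayes, two-sided) in R 4.3.3 with 4 residual degrees of freedom, and p-values were adjusted by Benjamini-Hochberg over all genes of each comparison, with a threshold of 0.05. The fit was tested on simulated data with the means and spread of these genes, for PH minus 12 weeks with 200 changed genes a run. Changes of 1, 2, 3 and 4 log2 units were called in 17.6%, 70.4%, 91.8% and 95.8% of cases, and unchanged genes in 0.1%. A gene without a call may therefore still differ by 1 log2 unit or more. The simulation gave each gene the same spread in all groups and drew the arrays independently. In the data the 12-week arrays stood further apart, and deviations of same-numbered PH and 12-week arrays correlated at 0.568. The simulated rates may therefore not carry over to the data. The 10 genes and the gene lists were chosen with earlier results of these data known. The text names the 10 genes, from each pathway list the genes that passed (at most 4) or else the one with the largest difference, and the 3 nearest profiles for genes whose group means span at least 1 log2 unit. Alternatives left out each array, added the replicate number as a block, recentred the arrays, filtered low genes, used all probe sets or their mean, changed the variance prior, or fitted 2 groups alone. Alternatives for the pathway genes were chosen after seeing the data.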

Additional observations from a re-analysis of the deposited data

How the results depend on the processing

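Of 942 values of the 10 genes under 16 alternatives, 884 kept their direction and their side of the threshold, 55 took the opposite direction and 3 lost a call. The 3 lost calls are those of Hgf for 12 minus 2 weeks given above. Of the 55, 48 came with an array left out and 7 with another centring, none had a called value, and 0.43 was the largest difference that turned. The other alternatives leave the differences of these genes unchanged, as does leaving out an array of a group outside the comparison. Such values could not turn, so the 942 overstate how many were free to. No comparison of Hgf turned, and of Egf only PH minus 4 weeks did. Egf and other genes below the median level have no value under the filter on low levels. Leaving out 1 array at a time moved differences across 0 as follows, as lowest to highest. For PH minus 12 weeks it gave Areg -0.24 to 0.28, Egfr -0.68 to 0.0152, Erbb3 -0.19 to 0.73, Fgfr4 -0.50 to 0.29, Hbegf -0.30 to 0.0308, Tgfa -0.32 to 0.0437 and Tgfb1 -0.50 to 0.45. For PH minus 2 weeks it gave Egfr -0.0941 to 0.47, Hbegf -0.26 to 0.0713 and Met -0.15 to 0.10. For PH minus 4 weeks it gave Egf -0.63 to 0.10, Egfr -0.54 to 0.0282, Erbb3 -0.0577 to 0.73, Fgfr4 -0.68 to 0.47, Met -0.11 to 0.0708, Tgfa -0.87 to 0.0073 and Tgfb1 -0.86 to 0.26. For 12 minus 2 weeks it gave Areg -0.0301 to 0.49, Erbb3 -0.26 to 0.66, Fgfr4 -0.69 to 0.0329 and Hbegf -0.0334 to 0.11. For 12 minus 4 weeks it gave Areg -0.34 to 0.18, Egfr -0.27 to 0.43, Erbb3 -0.40 to 0.53, Fgfr4 -0.57 to 0.58, Tgfa -0.73 to 0.14 and Tgfb1 -0.83 to 0.28. For 4 minus 2 weeks it gave Erbb3 -0.31 to 0.58, Fgfr4 -0.91 to 0.25, Met -0.14 to 0.12, Tgfa -0.60 to 0.28 and Tgfb1 -0.76 to 0.36. Among the pathway genes it gave Fgfr2 -0.0712 to 1.14 and Inhbe -0.34 to 2.24 for 12 minus 4 weeks, and Mst1 -2.47 to 0.0649 for 12 minus 2 weeks. Centring on each array's median turned Met (0.0421) and Areg (0.0027) for PH minus 4 weeks and Hbegf (0.0035) for 12 minus 4 weeks. Centring on the 75th percentile turned Areg for PH minus 12 weeks (-0.0067), Met for PH minus 2 weeks (0.0256) and 4 minus 2 weeks (0.0767), and Fgfr4 for 12 minus 4 weeks (-0.0007).

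Counts over all genes depended more on the settings. With an array left out they ran from 1 to 11 for PH minus 12 weeks, 72 to 421 for PH minus 2 weeks, 6 to 132 for PH minus 4 weeks, 101 to 382 for 12 minus 2 weeks, 5 to 24 for 12 minus 4 weeks and 26 to 110 for 4 minus 2 weeks, and the 10 genes had 0 to 1 call for 12 minus 2 weeks. For PH minus 12 weeks (5 calls, 3 higher) median centring gave 2, both higher, the 75th percentile 11, of which 7 were higher, all probe sets 3 and the 2 groups alone 2. For PH minus 4 weeks (45 calls, 17 higher) they gave 29 (14 higher), 75 (23 higher), 22 and 109. The 2 groups alone gave 140 for 12 minus 2 weeks, with 0 of the 10 genes, and 7 for 12 minus 4 weeks. The cause of these shifts was not tested.

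With the array number as a replicate block the counts were 41 for PH minus 12 weeks, 498 for PH minus 2 weeks, 143 for PH minus 4 weeks, 515 for 12 minus 2 weeks, 30 for 12 minus 4 weeks and 129 for 4 minus 2 weeks, and no call among the 10 genes changed. Among the pathway genes the block added calls for Junb (PH minus 12 weeks, adjusted p = 0.0202), Mst1 (PH minus 2 weeks, 0.0378), Nrg1 (12 minus 2 weeks, 0.0334), and Gpc3 and Ccnd1 (4 minus 2 weeks, 0.0333 and 0.0189), all by limma. The block lowered the SE of Tgfb1 to 0.206, against 0.522 without it, and its PH minus 2 weeks difference of -0.50 had a limma adjusted p of 0.2923. Deviations of same-numbered arrays correlated at 0.0229 to 0.568 over 6 pairs of groups, of which 5 were above 0.1 and 12 with 2 weeks was not. The array difference had 1 sign in all 4 groups for 25.3% of genes, and 2 of the 8 arrays, both of 12 weeks, correlated best with an array of their own number. The labels do not say what the numbers mark, so the fit without the block was kept, and whether they mark a shared batch was not tested.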
